A study of Mus musculus with 15 samples.

Results

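The genes described here encode the receptor chains for interleukin 7 (IL-7) and interleukin 2 (IL-2), the kinases and transcription factors that carry their signal, and suppressors of that signal: *Il7r*, *Il2ra*, *Il2rb*, *Il2rg*, *Jak1*, *Jak3*, *Stat5a*, *Stat5b*, *Socs1* and *Socs3*. They were picked by their known role, with earlier results of these data already known, and all 10 were among the 12545 genes of the expression table. RNA-seq had been run on 15 cell lines grown from the thymic leukemias of mice, with 1 library for each line, and the lines had received no treatment. The 8 DKO lines had the genotype E2a-/-LefF/F LckCre+, that is, germline loss of E2a together with floxed alleles of *Lef1* and a Cre transgene driven by the *Lck* promoter, which is active in developing T cells. The 7 other lines were labelled E2a-/- with no change of *Lef1* named. Both groups thus lacked E2a, the E protein transcription factor whose absence gives rise to T cell leukemia in mice. All mice were on the FVB/NJ background, and the ages of the donor mice were not given for the lines. The comparison of the groups asks how leukemias that arose without LEF1 differ from those in which no loss of *Lef1* is named. Each line was grown from thymic cells of a sick mouse, but which lines came from separate mice was not given, so a p-value below measures the spread between lines.

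IL-7 binds a receptor made of the IL-7 receptor alpha chain, encoded by *Il7r*, and the common gamma chain, encoded by *Il2rg*. IL-2 binds the same gamma chain together with a beta chain, encoded by *Il2rb*, and its affinity is raised by the alpha chain CD25, encoded by *Il2ra*, which is also a surface marker of early thymocytes that have committed to the T lineage. The chains bring together the kinases JAK1 and JAK3, which phosphorylate STAT5A and STAT5B, and the SOCS proteins are made in response to cytokine signals and act back on receptors and kinases as inhibitors.

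*Il7r* and *Il2ra* varied more between the lines than almost any other gene, and they varied together. Levels are given in CPM, that is, reads of the gene relative to all reads of the library assigned to genes. *Il7r* ranged in the DKO lines from 0.841 CPM (18 reads) in DKO192.3 through a median of 110 CPM to 262 CPM in DKOTu3, and in the E2a-/- lines from 0 reads in the library labelled SKO132, where 3 reads would be 0.165 CPM, through a median of 2.12 CPM to 147.5 CPM in SKO186.5. The values left a gap. In all, 7 lines lay at 117 CPM or higher: DKO102.4, DKO548, DKO713, DKOTu3, SKO137.1, SKO156.6 and SKO186.5. The other 8 lay at 23.8 CPM or lower, and each genotype had lines on both sides, 4 DKO and 3 E2a-/- lines above the gap.

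*Il2ra* ranged from 12.4 CPM in DKO192.3 through a median of 336 CPM to 1636 CPM in DKO102.4 among the DKO lines. Among the E2a-/- lines it ranged from 0.827 CPM in the library labelled SKO132 through a median of 51.8 CPM to 678 CPM in SKO186.5. The highest line had 1978 times the level of the lowest, and 602 times that of the lowest with the library labelled SKO132 left out. The 7 lines high in *Il7r* were also the 7 highest in *Il2ra*, at 364 to 1636 CPM against 0.827 to 291 CPM in the other 8. The pair came apart in DKO79.9, the shallowest library, with *Il2ra* at 291 CPM and *Il7r* at 4.53 CPM (22 reads). It also did so in SKO163.5, with *Il2ra* at 51.8 CPM and *Il7r* at 0.538 CPM (10 reads). The SD over lines of each of the genes, on the scale log2(CPM + 1), exceeded that of 99.9% of genes whose mean level reached 5 CPM, and without the library labelled SKO132 that of 99.9% for *Il7r* and 99.7% for *Il2ra*.

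**Figure D1:**
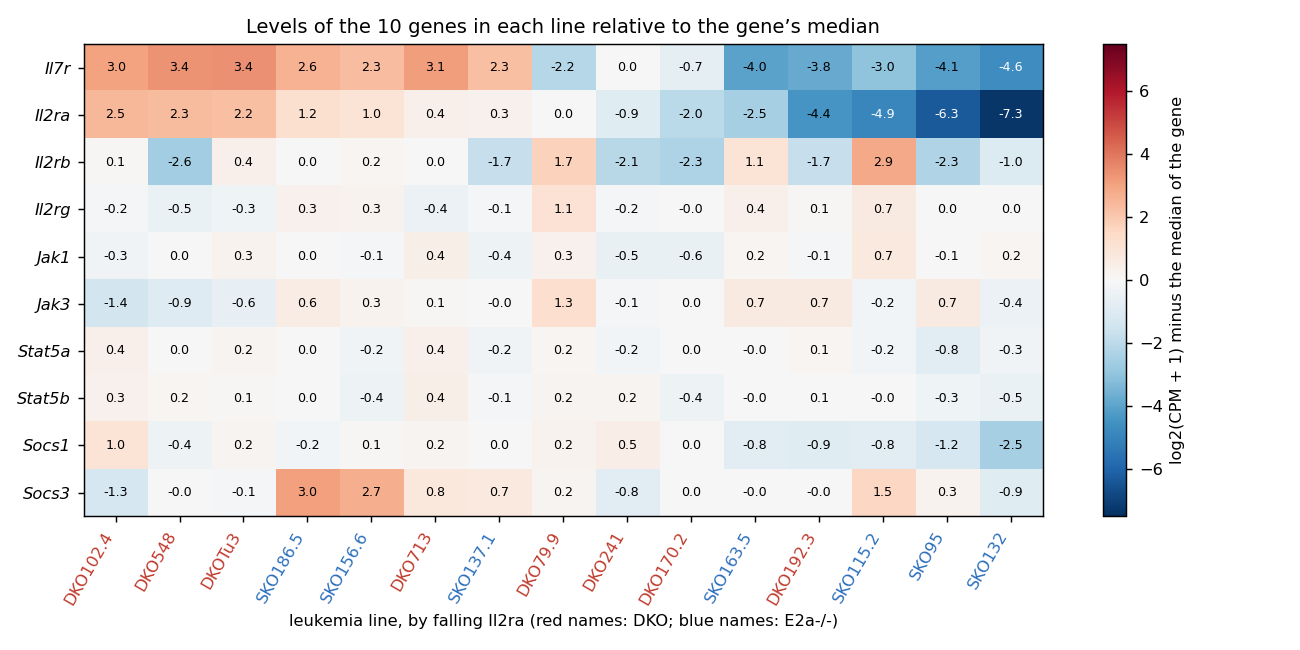
Level of each of the 10 genes (rows) in each of the 15 lines (columns, in order of falling *Il2ra*, with DKO names in red and E2a-/- names in blue), on the scale log2(CPM + 1) and relative to the middle value of that gene over the 15 lines. *Il7r* follows *Il2ra* from left to right, *Socs1* is low in the lines at the right end, and *Socs3* stands out in SKO186.5 and SKO156.6, at 69.6 and 55.8 CPM.

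The 250 bases before the transcription start are shown for *Il7r* and *Il2ra*, for *Socs1*, whose level followed them across the lines, and for *Socs3*, whose level did not. They are RefSeq promoters on the build GRCm38.p6 and are written 5′ to 3′ on the strand of the gene. Capitals mark a GAS motif, TTCNNNGAA, the letters to which STAT dimers are known to bind.
*Il7r*, chr15:9529877-9530126, minus strand: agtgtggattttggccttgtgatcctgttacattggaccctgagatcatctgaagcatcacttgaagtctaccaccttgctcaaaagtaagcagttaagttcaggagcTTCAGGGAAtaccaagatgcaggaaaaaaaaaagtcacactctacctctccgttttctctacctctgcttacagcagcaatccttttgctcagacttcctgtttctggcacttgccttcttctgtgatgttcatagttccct
*Il2ra*, chr2:11642542-11642791, plus strand: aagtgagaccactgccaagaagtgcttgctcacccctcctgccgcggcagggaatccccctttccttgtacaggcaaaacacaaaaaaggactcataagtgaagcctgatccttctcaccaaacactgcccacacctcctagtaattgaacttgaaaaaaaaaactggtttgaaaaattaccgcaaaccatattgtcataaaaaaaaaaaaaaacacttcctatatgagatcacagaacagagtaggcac
*Socs1*, chr16:10785537-10785786, minus strand: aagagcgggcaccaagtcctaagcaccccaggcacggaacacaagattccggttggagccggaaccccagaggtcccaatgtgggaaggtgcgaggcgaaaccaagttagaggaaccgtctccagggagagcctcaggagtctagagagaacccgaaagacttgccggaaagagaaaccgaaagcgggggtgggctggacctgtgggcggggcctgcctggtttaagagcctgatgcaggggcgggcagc
*Socs3*, chr11:117969367-117969616, minus strand: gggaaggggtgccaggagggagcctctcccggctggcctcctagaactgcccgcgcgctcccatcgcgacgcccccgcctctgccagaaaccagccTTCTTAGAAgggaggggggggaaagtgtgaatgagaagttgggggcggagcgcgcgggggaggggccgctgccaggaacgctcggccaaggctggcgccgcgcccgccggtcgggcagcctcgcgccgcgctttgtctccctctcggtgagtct
The *Il7r* window held the letters TTCAGGGAA, which began 142 bases before the start, and the *Socs3* window held TTCTTAGAA, which began 154 bases before it. In GENCODE M21, each of these windows lies within the annotated span of the same gene, whereas the windows of *Il2ra* and *Socs1* lie outside the annotated gene. A promoter was found for 9 of the 10 genes, 11 promoters in all, and GAS was present for 2 of the 9 genes, *Il7r* and *Socs3*. Over all 32851 promoters, 7.02% held it within the same length. The TCF/LEF motif CTTTGA was found for *Stat5a* alone among the 9 genes and in 13.8% of all promoters. The RBPJ motif TGGGAA, bound by the DNA-binding partner of Notch, was found for *Il2rg* and *Socs1* and in 21.6% of all promoters. Both strands were searched. A match is a run of letters and not a measured binding site.

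The libraries held 4847970 to 21377352 reads in the DKO lines and 14477802 to 21681586 in the E2a-/- lines, so that 3 reads corresponded to 0.138 CPM in the deepest library and to 0.618 CPM in the shallowest, DKO79.9. *Lef1* mRNA was 103 to 210 CPM in the DKO lines and 668 to 1558 CPM in the E2a-/- lines apart from the library labelled SKO132, where it was 59.0 CPM, below every DKO line. SKO132 is therefore called by its label, and results that rest on it are given with and without it. SKO156.6 and SKO186.5 resembled each other more than any other pair (Spearman's rho = 0.987 across genes) and shared *Trbv26* as the most abundant T cell receptor beta segment, and whether they came from separate mice is not known. Their counts differed by more than counting noise, which shows only that they are not the same library deposited again. They were used as the labels give them, as separate lines, and values over all lines with the pair averaged are given where they differ. Values over the E2a-/- lines alone, or above the gap in *Il7r*, were not computed with the pair averaged. All 10 T lineage markers looked for were listed, summing to 2066 to 4916 CPM per line. None of 4 B cell markers and none of 3 erythroid markers was listed. For the stromal markers, 2 of 3 were listed and summed to 3.89 to 947 CPM in the DKO lines and 1.84 to 280 CPM in the E2a-/- lines, with *Col1a1* not listed. *Col1a2* made up most of this sum in every line but DKOTu3, which had no *Col1a2* and 3.89 CPM of *Pdgfra*. Myeloid markers, 3 of 6 listed, summed to 8.99 to 18.9 CPM, with *Csf1r*, *Adgre1* and *C1qa* not listed. These are bulk samples, in which fewer cells that express a gene and less RNA per cell cannot be told apart.

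*Il2rb*, the signalling beta chain for IL-2 and interleukin 15, was low in most lines. It ranged from 0 reads in DKO548 through a median of 3.05 CPM to 19.4 CPM in DKO79.9 among the DKO lines, and from 0.276 CPM (6 reads) in SKO95 through a median of 5.22 CPM to 43.8 CPM in SKO115.2 among the E2a-/- lines. SKO115.2, DKO79.9 and SKO163.5, at 11.9 CPM, were the 3 highest lines. The same 3 lines were the highest for *Nkg7*, a granule gene of natural killer and cytotoxic T cells, at 24.7, 30.9 and 2.47 CPM against 0.193 CPM or less in every other line. Of the 4 natural killer markers looked for, *Nkg7* and *Klrb1c* were listed, *Ncr1* and *Eomes* were not, and *Klrb1c* did not exceed 1.37 CPM in any line. The part of such cells in the *Il2rb* values was not tested. DKO548 reached 1484 CPM of *Il2ra* and 253 CPM of *Il7r* with no read of *Il2rb*, so the alpha chain was abundant in a line without detectable beta chain mRNA at this depth.

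*Il2rg*, the gamma chain shared by both receptors, was present in every line, over a 3.04-fold range. The DKO lines ranged from 56.8 CPM in DKO548 through a median of 71.3 CPM to 173 CPM in DKO79.9, and the E2a-/- lines from 74.0 CPM in SKO137.1 through a median of 98.5 CPM to 130 CPM in SKO115.2. The groups overlapped, and DKO79.9, the shallowest library, lay far above the other DKO lines, which reached 85.2 CPM. Across the 15 lines *Il2rg* had r = -0.63 with read depth, and without DKO79.9 it had r = -0.022, both as descriptions.

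The kinases were also present throughout. *Jak1* ranged from 183 CPM in DKO170.2 through a median of 265 CPM to 364 CPM in DKO713 among the DKO lines, and from 208 CPM in SKO137.1 through a median of 280 CPM to 451 CPM in SKO115.2 among the E2a-/- lines. *Jak3*, which pairs with the gamma chain, was lower and spread more widely, from 10.1 CPM in DKO102.4 through a median of 26.2 CPM to 66.8 CPM in DKO79.9 in the DKO lines and from 19.8 CPM in the library labelled SKO132 through a median of 33.0 CPM to 45.1 CPM in SKO163.5 in the E2a-/- lines. For both kinases the E2a-/- and DKO values overlapped over most of their range, and the highest line had 2.47 times the lowest for *Jak1* and 6.60 times for *Jak3*.

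*Stat5a* and *Stat5b*, neighbours on chromosome 11 that encode near-identical transcription factors, had the narrowest ranges of the 10 genes. *Stat5a* was 104 CPM in DKO241, the lowest DKO line, with a median of 135 CPM and 161 CPM in DKO102.4, the highest, whereas the E2a-/- lines ranged from 68.2 CPM in SKO95 through a median of 103 CPM to 122 CPM in SKO186.5. *Stat5b* was 154 CPM in DKO170.2, with a median of 229 CPM and 269 CPM in DKO713, against 140 CPM in the library labelled SKO132, a median of 188 CPM and 202 CPM in SKO186.5. For *Stat5a*, 6 of the 8 DKO lines lay above every E2a-/- line, and for *Stat5b* 7 of 8 did. How reads that match both genes were assigned is not known, so the split between them is uncertain, and *Stat5a* also overlaps *Stat3* in the annotation. On GRCm38 the genes lie at chr11:100859351-100885169 and chr11:100780731-100850724. In DKO241 the genes of chromosome 11 were raised by a median of 0.47 on the log2 scale, against at most 0.096 in any other line, while its *Stat5a* was the lowest of the DKO lines and its *Stat5b* was 230 CPM.

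*Socs1*, an inhibitor of JAK kinases, was low but measurable in all lines. It ranged from 5.19 CPM in DKO192.3 through a median of 12.3 CPM to 22.1 CPM in DKO102.4 in the DKO lines, and from 1.05 CPM (19 reads, 95% Poisson interval 0.631 to 1.64 CPM for counting error only) in the library labelled SKO132 through a median of 5.64 CPM to 11.04 CPM in SKO156.6 in the E2a-/- lines. The lines highest in *Socs1* were thus mostly DKO: 5 of them lay above every E2a-/- line. *Socs3*, the inhibitor best known from signalling through gp130, was distributed otherwise. The DKO lines ranged from 2.49 CPM in DKO102.4 through a median of 7.47 CPM to 13.9 CPM in DKO713, and the E2a-/- lines from 3.47 CPM in the library labelled SKO132 through a median of 13.1 CPM to 69.6 CPM in SKO186.5. SKO115.2, SKO156.6 and SKO186.5 lay above all DKO lines, at 23.5, 55.8 and 69.6 CPM, and the other 4 E2a-/- lines lay within the DKO range. DKO102.4 had the highest *Socs1* of all lines and the lowest *Socs3*.

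Set side by side per length, in CPM per kilobase of annotated exon and as the median over the 15 lines, *Il2ra* stood highest at 50.9, followed by *Jak1* at 37.4, *Stat5b* at 36.4, *Il2rg* at 33.7 and *Stat5a* at 17.1. *Jak3* at 5.12, *Il7r* at 5.11, *Socs1* at 3.60, *Socs3* at 2.60 and *Il2rb* at 1.22 formed the lower part of the order. Neighbours in this order overlapped in their ranges over lines, except that *Il2rg* in its lowest line, at 23.8, lay above *Stat5a* in its highest, at 22.6.

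**Figure D2:**
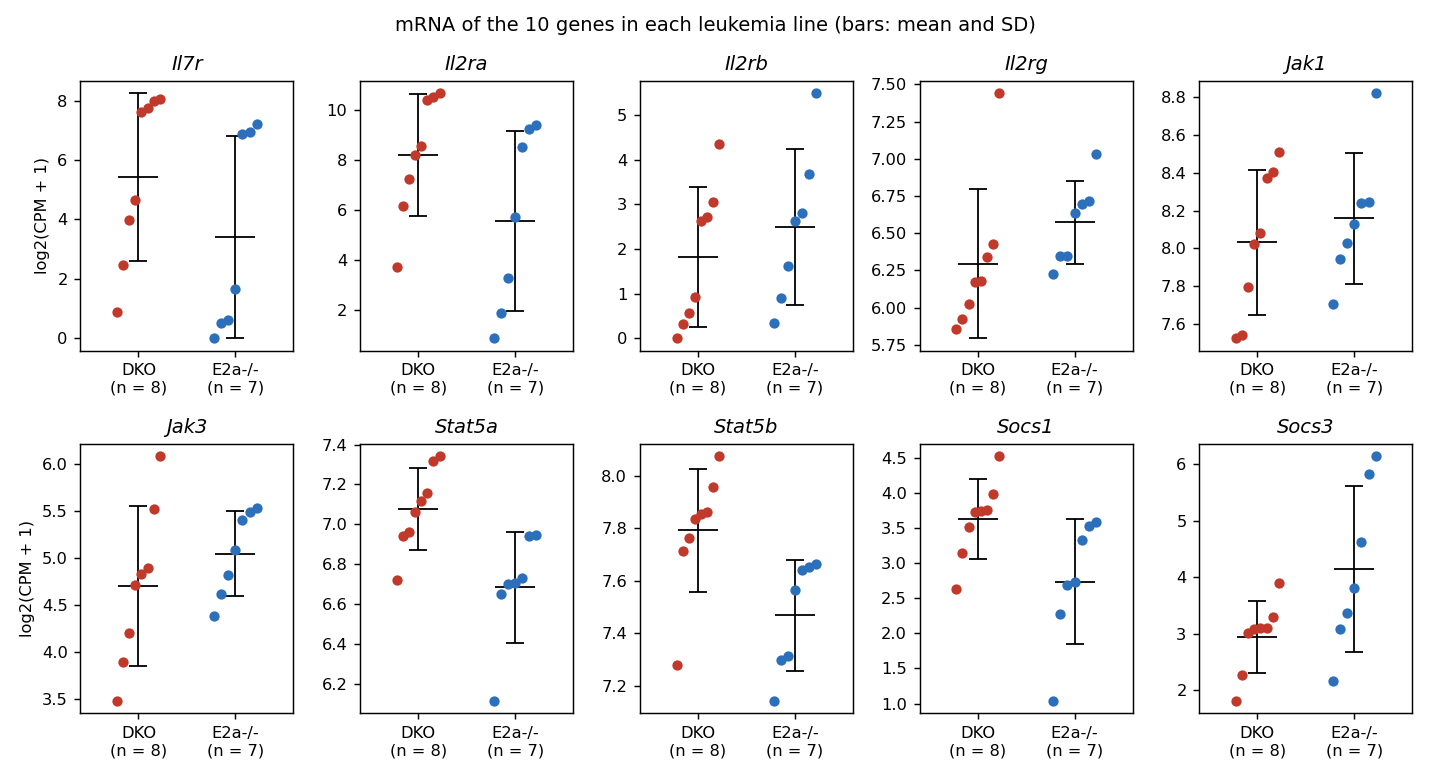
Level of each gene in each line as log2(CPM + 1), with 1 panel for each gene (the scales differ between panels), 8 DKO lines in red and 7 E2a-/- lines in blue; the bars give the mean and the SD over lines. The groups overlap for all 10 genes, and *Il7r* and *Il2ra* have lines at both ends of the scale in each genotype.

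To relate the receptor chains to the *Socs* genes line by line, the 4 chains were each set against *Socs1* and *Socs3*, giving 8 pairs, on the scale log2(CPM + 1), with permutation p-values that are two-sided and adjusted by Benjamini-Hochberg over the 8. *Socs1* rose with *Il2ra* (r = 0.84, permutation p = 7.0e-05, adjusted p = 0.000560; Spearman's rho = 0.69, adjusted p = 0.0409) and with *Il7r* (r = 0.73, permutation p = 0.000910, adjusted p = 0.00364; rho = 0.65, adjusted p = 0.0409). The 7 lines high in *Il7r* had *Socs1* between 7.82 and 22.1 CPM, and the other 8 between 1.05 and 14.9 CPM. DKO79.9, DKO241 and DKO170.2 were low in *Il7r* but had *Socs1* at 12.6, 14.9 and 10.5 CPM.

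The relations rest in part on the lines with the lowest receptor levels. With the library labelled SKO132 left out, r was 0.78 for *Il2ra* with *Socs1* (permutation p = 0.000950) and 0.69 for *Il7r* (permutation p = 0.00669). With the 2 lines farthest from the median of either receptor left out, which were SKO95 and the library labelled SKO132 for both, r was 0.69 for *Il2ra* (permutation p = 0.00849, adjusted p = 0.0679) and 0.62 for *Il7r* (permutation p = 0.0254, adjusted p = 0.102), so neither relation then passed the threshold of 0.05 after adjustment. Within the genotypes, r of *Il2ra* with *Socs1* was 0.91 over the 7 E2a-/- lines (exact permutation p = 0.00119) and 0.59 over the 8 DKO lines (exact permutation p = 0.121). For *Il7r* these were 0.83 (exact permutation p = 0.00357) and 0.47 (exact permutation p = 0.253), and the difference between the genotypes was not tested. With the mean of each genotype removed, r was 0.80 for *Il2ra* and 0.69 for *Il7r* (permutation p = 0.000590 and 0.00569). With SKO156.6 and SKO186.5 averaged, r over all lines was 0.85 and 0.73. The values over the E2a-/- lines alone count this pair as separate lines and were not repeated with it averaged. Since *Il7r* split the lines at a gap, the relations were also computed on either side of it: *Il2ra* with *Socs1* gave r = 0.28 over the 7 lines above the gap (exact permutation p = 0.602) and r = 0.92 over the 8 lines below it (exact permutation p = 0.000248), and *Il7r* with *Socs1* gave r = 0.10 and r = 0.86 (exact permutation p = 0.861 and 0.00360). Among the 7 lines high in both receptors, no relation to *Socs1* was detected. These lines spanned less of the log2 scale of *Il7r*, 6.89 to 8.04 against 0 to 4.63 below the gap. A narrow range by itself lowers r, so the split cannot show whether the relation ends there. It was made after the data had been seen, and its p-values are not adjusted.

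No relation was detected for the other 6 pairs. For *Il2rb* and *Il2rg* with *Socs1*, r was 0.10 and -0.12 (permutation p = 0.718 and 0.669). With *Socs3*, r was 0.24 for *Il7r*, 0.18 for *Il2ra*, 0.32 for *Il2rb* and 0.36 for *Il2rg* (permutation p = 0.384, 0.539, 0.250 and 0.189). Over the E2a-/- lines alone, *Socs3* gave r = 0.79 with *Il7r* (exact permutation p = 0.0494, not adjusted) and 0.75 with *Il2ra* (exact permutation p = 0.0609), values to which SKO156.6 and SKO186.5, the pair of lines most alike, contributed the highest *Socs3*. In the DKO lines the same values were -0.092 and -0.21.

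**Figure D3:**
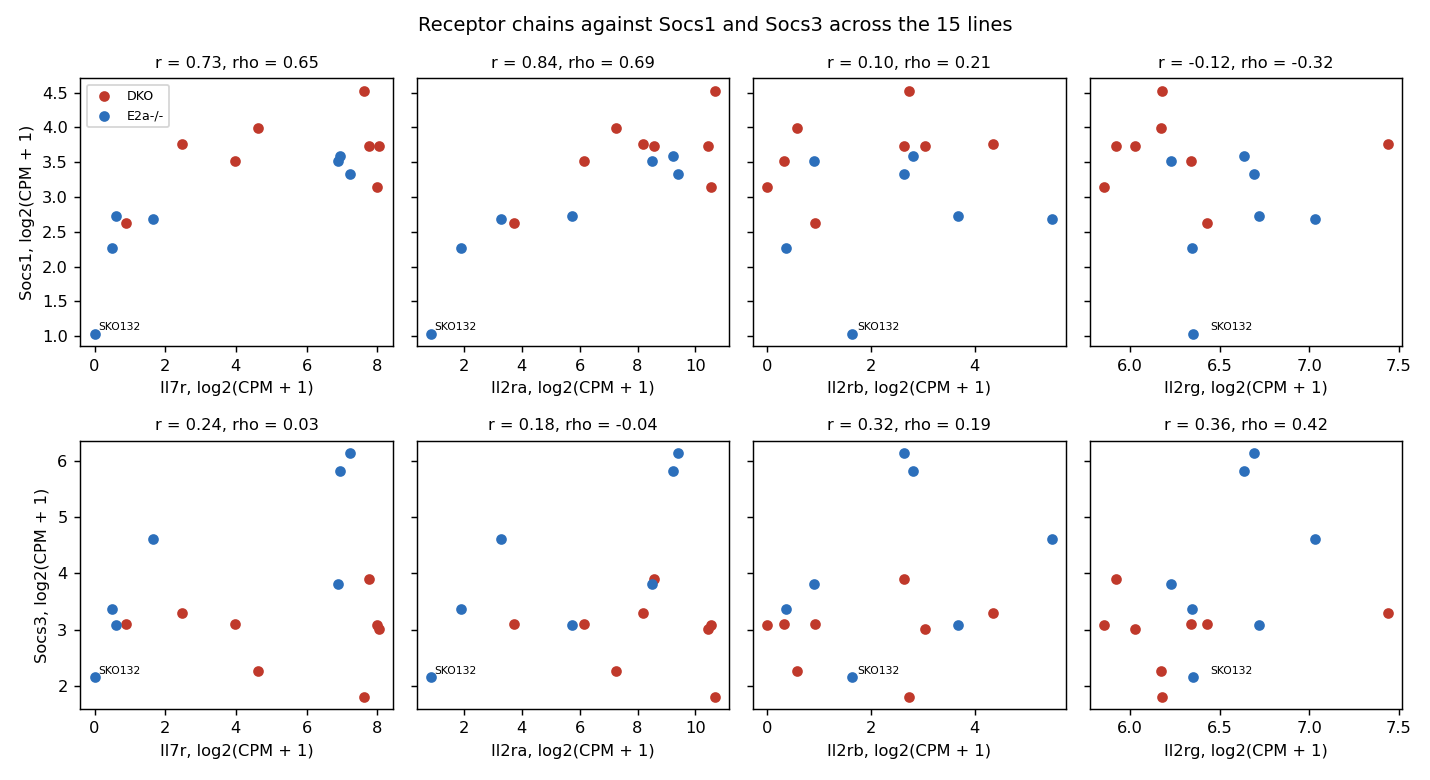
Each of the 4 receptor chains (horizontal axis) against *Socs1* (top row) and *Socs3* (bottom row) as log2(CPM + 1), 1 point for each line, DKO in red and E2a-/- in blue, with the library labelled SKO132 named. *Socs1* rises with *Il7r* and *Il2ra* (r = 0.73 and 0.84), whereas *Socs3* shows no such order. Among the lines high in *Il7r* no relation to *Socs1* was detected, but these lines span a narrow range of *Il7r*.

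Set against the other genes of the table, the closeness of *Il2ra* to *Socs1* over all 15 lines was unusual. The pair was looked at here as the one with the highest r of the 8. Without the library labelled SKO132 its r was 0.78, and its rank was not computed. Of 9706 genes whose mean level reached 5 CPM, 8 (0.0824%) had an r to *Socs1* at least that of *Il2ra*, itself included, whereas *Il7r* ranked 78. The genes closest to *Socs1* were *Sgta*, *Spsb4* and *Ifi203-ps* (r = 0.91, 0.90 and 0.88 over 15 lines), and without the library labelled SKO132 these fell to 0.81, 0.79 and 0.77. For *Il7r* the closest genes were *Trim2*, *Fstl3* and *Tnfsf8* (r = 0.94, 0.94 and 0.92), with *Il2ra* in rank 4. For *Il2ra* they were *Tnfsf8*, *Necab1* and *Il7r* (r = 0.94, 0.94 and 0.91), so that *Tnfsf8*, which encodes the CD30 ligand, stood near both receptors. *Il2rb* was most like *Cd82*, *Mob3c* and *Sgk1* (r = 0.90, 0.88 and 0.88). The genes closest to *Socs3* were *Trf*, *Wdr31* and *Hsdl2* (r = 0.87, 0.85 and 0.84), values that were 0.25, 0.42 and 0.46 in the DKO lines alone. These correlations are descriptions over lines that differ in depth and genotype.

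Among all 45 pairs of the 10 genes, a set looked at after the data had been seen, 6 had an adjusted p under 0.05 over the 45 by Pearson's r, all with r above 0. The strongest was *Il7r* with *Il2ra* (r = 0.91, permutation p = 2.0e-05, adjusted p = 0.000900; rho = 0.93, permutation p = 1e-05, the smallest that 100000 resamples can give). It was the only pair to pass by rho as well. Its r was 0.87 over the DKO lines (exact permutation p = 0.00461), 0.92 over the E2a-/- lines (exact permutation p = 0.0151), 0.88 without the 2 farthest lines, and 0.64 and 0.75 above and below the gap in *Il7r*. Next to the relations of *Il2ra* and *Il7r* to *Socs1* came *Il2rb* with *Jak1* (r = 0.74, adjusted permutation p = 0.0209), *Stat5a* with *Stat5b* (r = 0.69, adjusted permutation p = 0.0291) and *Il2rb* with *Il2rg* (r = 0.66, adjusted permutation p = 0.0478). The last of these was 0.51 without its 2 farthest lines. *Stat5a* with *Stat5b* gave r = 0.43 over the DKO lines alone (exact permutation p = 0.292). Over the E2a-/- lines alone this pair gave r = 0.57 (exact permutation p = 0.143). Over the 15 lines *Il2rb* thus rose with *Jak1* and *Il2rg*, but not detectably with *Jak3* (r = 0.17, permutation p = 0.547). In the DKO lines alone the r of *Il2rb* with *Il2rg* was 0.53 (exact permutation p = 0.158). In the E2a-/- lines alone it was 0.96 (exact permutation p = 0.00218). With *Jak1* the r of *Il2rb* was 0.66 in the DKO and 0.80 in the E2a-/- lines (exact permutation p = 0.0779 and 0.0327). These p-values are not adjusted. *Il2ra* and *Il7r* did not rise with *Il2rg*, with r = -0.25 and -0.50. For *Il7r* with *Il2rg* rho was -0.62 (permutation p = 0.0160, adjusted p = 0.0898), and r was -0.70 in the DKO and -0.055 in the E2a-/- lines.

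**Figure D4:**
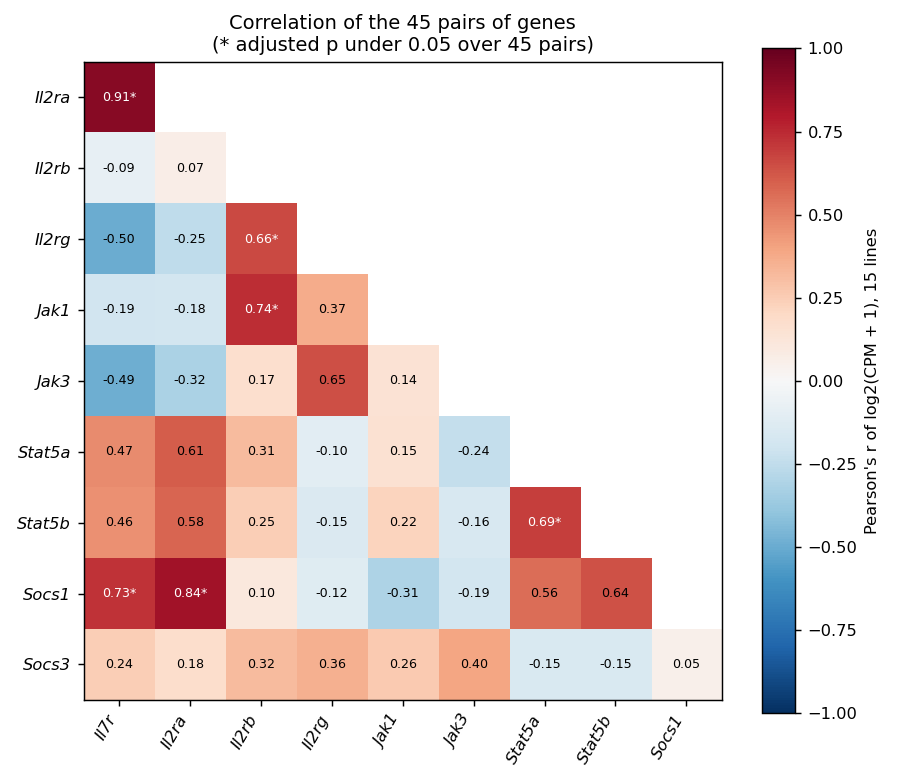
Pearson's r of log2(CPM + 1) over the 15 lines for each of the 45 pairs of genes, with the value written in each cell and an asterisk where the adjusted permutation p was under 0.05 over the 45 pairs. The marked cells are *Il7r* with *Il2ra*, each of these with *Socs1*, *Il2rb* with *Jak1* and with *Il2rg*, and *Stat5a* with *Stat5b*.

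Between the genotypes, no member of the set passed the test across all genes, and the genes that came nearest were *Stat5a*, *Stat5b* and *Socs1*, higher in the DKO lines, and *Socs3*, lower. Fold changes are differences of mean log2(CPM + 1), DKO minus E2a-/-, from limma, with p-values adjusted by Benjamini-Hochberg over the 12545 genes. By limma at an adjusted p under 0.01, 0 of the 10 genes were called, against 0.0478% of all genes (6 genes). By DESeq2 on the reads recovered from the CPM values, 0 of the 10 were called, against 1.41% of all genes, and the edgeR tests called none of the 10 either. At an unadjusted limma p under 0.05, 4 of the 10 passed, 3 higher and 1 lower, against 10.2% of all genes. For none of the 10 did the groups fail to overlap, as they did for 0.175% of all genes.

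*Stat5a* was higher in the DKO lines by 0.39 ± 0.12 (SE) on the log2 scale, (adjusted limma p = 0.268, exact permutation p = 0.00373 for this gene alone over the 6435 ways of assigning the lines). *Stat5b* differed by 0.32 ± 0.12 (adjusted limma p = 0.344, exact permutation p = 0.0183). Without DKO241, the line with raised chromosome 11, the differences were 0.44 and 0.32. Leaving out SKO95, the lowest line for *Stat5a*, gave 0.30 for each, and leaving out the library labelled SKO132 gave 0.39 and 0.27. *Socs1* differed by 0.89 ± 0.36 (adjusted limma p = 0.413, exact permutation p = 0.0280), and without the library labelled SKO132 by 0.61. *Socs3* differed by -1.20 ± 0.53 (adjusted limma p = 0.463, exact permutation p = 0.0563), by -1.53 without the library labelled SKO132 and by -0.89 with SKO156.6 and SKO186.5 averaged. The count models gave *Socs3* a larger difference, -1.81 by DESeq2 (adjusted p = 0.0467) and -1.80 by both edgeR tests (adjusted p = 0.0794 by likelihood ratio and 0.234 by quasi-likelihood), none of them under 0.01. The single-gene values are not adjusted for the number of genes.

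*Il2ra* and *Il7r* had the largest differences of the 10 genes by limma on this scale, with the widest errors. *Il2ra* differed by 2.64 ± 1.44 (adjusted limma p = 0.566, exact permutation p = 0.116) and *Il7r* by 2.02 ± 1.48 (adjusted limma p = 0.666, exact permutation p = 0.224). With SKO156.6 and SKO186.5 averaged these differences were larger, at 3.26 and 2.63, as they were without DKO192.3, at 3.27 and 2.67. Both were smaller without the library labelled SKO132, at 1.85 and 1.46, with array weights, at 1.44 and 1.06, and by DESeq2, at 1.48 and 1.15. By DESeq2 and with array weights *Socs3* differed by more than either, with -1.81 and -1.62. A difference between the genotypes was thus not detectable against the spread of these genes within each genotype. *Il2rb* differed by -0.68 ± 0.80, *Jak3* by -0.35 ± 0.34, *Il2rg* by -0.28 ± 0.20 and *Jak1* by -0.13 ± 0.18, with adjusted limma p-values of 0.666 or higher. The median size of the difference, regardless of sign, was 0.54 for the 10 genes and 0.16 for all genes.

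The other JAK-STAT genes gave the same count. Of a list of 50 further genes, 43 were listed in the table and 0 of the 43 passed at an adjusted limma p under 0.01, 8 passed at an unadjusted p under 0.05 (3 higher and 5 lower in the DKO lines), and 19 were higher and 24 lower. Over all genes, 0.0478% passed at an adjusted limma p under 0.01, so 0 of 43 does not set this list apart. At an unadjusted p under 0.05, 10.2% of all genes passed, and 5810 were higher and 6735 lower. Of the 7 ligands on that list, *Tslp* alone was listed, with 1.38 CPM in the DKO and 0.406 CPM in the E2a-/- lines as means (log2 difference 0.71, limma adjusted p = 0.463), while *Il7*, *Il2*, *Il4*, *Il9*, *Il15* and *Il21* were not listed. Among 11 other receptors, *Il9r*, another partner of the gamma chain, had 67.1 and 43.7 CPM (log2 difference 0.85, limma adjusted p = 0.407), and *Il6ra*, the alpha chain for interleukin 6, had 0.763 and 2.03 CPM (log2 difference -0.84, limma adjusted p = 0.463). Not all partners of the gamma chain lay on the same side: *Il21r*, named after its values were seen, had 8.66 and 25.2 CPM (log2 difference -1.17, limma adjusted p = 0.483). Among 7 other kinases and STATs, *Jak2*, the kinase used by many cytokine receptors, had 61.3 and 99.0 CPM (log2 difference -0.60, limma adjusted p = 0.399). *Stat4* had 0.0634 and 0.616 CPM (log2 difference -0.51, limma adjusted p = 0.420). It was near its detection limit in the DKO lines, and in the E2a-/- lines it ranged from 0.0552 CPM in the library labelled SKO132 to 1.84 CPM in SKO95.

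Among 15 other negative regulators, *Pias2*, a SUMO ligase that binds STATs, had 68.5 and 88.2 CPM and the lowest p of the list (log2 difference -0.36, limma adjusted p = 0.245). *Ptpn6*, the phosphatase SHP-1, had 145 and 110 CPM (log2 difference 0.40, limma adjusted p = 0.339). None of the 9 STAT5 targets had an unadjusted limma p under 0.05, against 10.2% of all genes. *Ccnd2*, encoding cyclin D2, had the widest difference, 80.1 against 14.4 CPM as means (log2 difference 2.26, limma adjusted p = 0.570), with DKO lines from 0.265 to 288 CPM and E2a-/- lines from 0 to 50.8 CPM. *Pim1*, which encodes a survival kinase, had 18.5 and 26.2 CPM (log2 difference -0.53, limma adjusted p = 0.577). *Cish*, an early target of STAT5, was not listed.

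**Figure D5:**
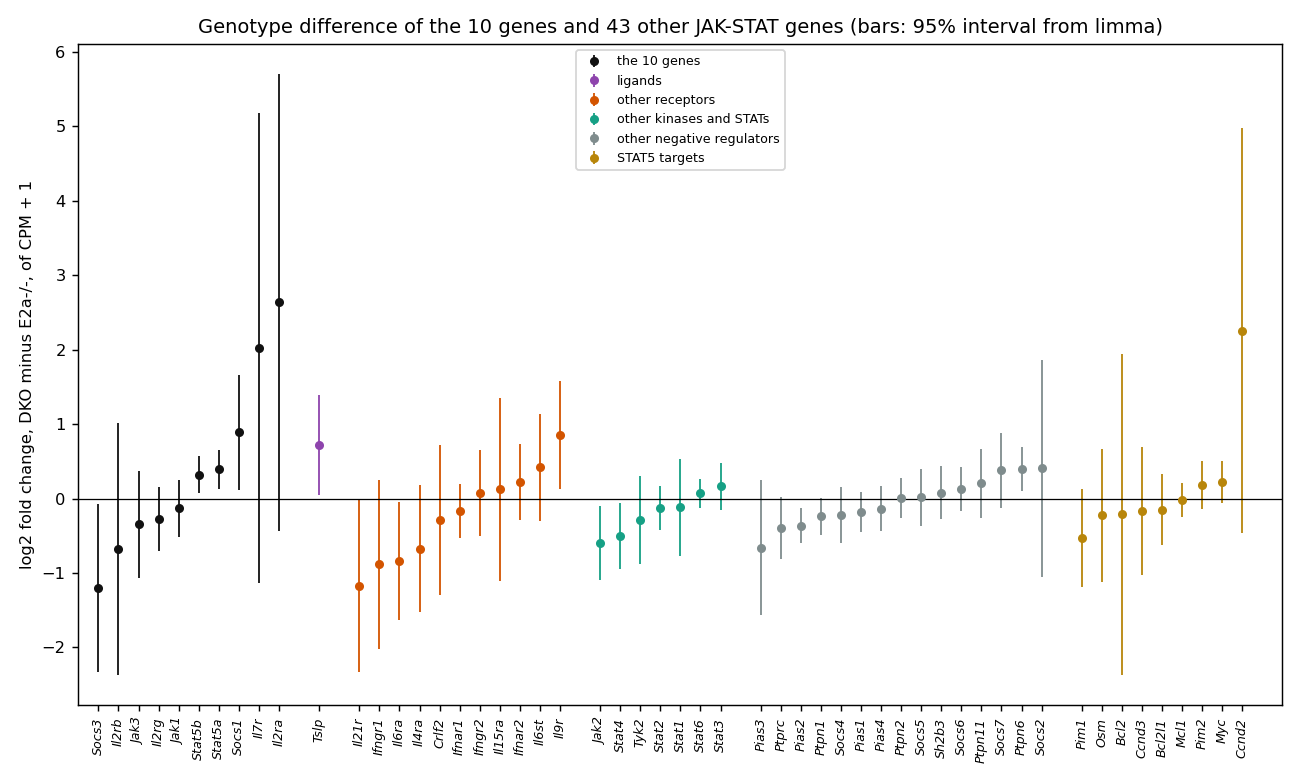
Difference between the genotypes (DKO minus E2a-/-, log2 of CPM + 1, limma, bars giving the 95% interval) for the 10 genes in black and for 43 other JAK-STAT genes grouped by role. The intervals of *Stat5a*, *Stat5b*, *Socs1* and *Socs3* leave out 0 before adjustment, and those of *Il7r* and *Il2ra* are among the widest.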

How the data were processed

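Total RNA of each line had been sequenced by the authors (selection and strandedness are not given in the sources used here), and reads were, per the submitters' processing notes, trimmed with Trimmomatic (0.33), aligned to mm10 with TopHat2 (2.1.0) and counted per gene with HTSeq (0.6.1). The deposited values are CPM made by the authors with edgeR, and their filter on low genes is not given in the sources used here. CPM sums were 996984 to 999289 for each library, and every value was a whole number of reads (tolerance 0.05 read), so reads were recovered. The table's coordinates did not match GRCm38 and were not used, and lengths and positions are those of GENCODE M21.

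Genotypes were compared with limma (3.58.1, trend) on log2(CPM + 1), the threshold being an adjusted p under 0.01, beside exact permutation of the lines. Alternatives were edgeR (4.0.16) and DESeq2 (1.42.0) on the recovered reads, other pseudocounts and filters, array weights and leaving out lines. Correlations used 100000 permutations, or all orders within 7 or 8 lines. The code was checked on simulated data. Fold changes on this scale understate the change of low genes. The 10 genes and all lists were chosen with earlier results of these data known. Named by rule beyond the 10 were *Lef1* and *Notch1* as checks, the 3 genes closest by r to *Il7r*, *Il2ra*, *Il2rb*, *Socs1* and *Socs3*, and the 2 genes with the lowest p of each JAK-STAT list. Marker genes, *Il21r*, *Bcl2* and *Pim2* were named after their values were seen. The RefSeq promoters are on GRCm38.p6.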

Additional observations from a re-analysis of the deposited data

Results flagged for a closer look

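Each of the 10 genes was checked in each genotype for a line far from the rest, 20 groups in all, and 3 were flagged, where chance flags about 1 in 20. *Il2rg* was 173 CPM in DKO79.9, the shallowest library, against 56.8 to 85.2 CPM in the other DKO lines. *Stat5a* was 68.2 CPM in SKO95 against 99.4 to 122 CPM in the other E2a-/- lines. *Stat5b* was 154 CPM in DKO170.2 against 209 to 269 CPM in the other DKO lines.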

How the results depend on the processing

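Over 28 alternatives, 0 of the 10 genes and 0 of the 43 others were called in each, whereas the count over all genes, 6 in limma, was 177 by DESeq2, 84 by the edgeR likelihood ratio test, 1 by edgeR quasi-likelihood, 29 with array weights, 30 without the library labelled SKO132 and DKO79.9 together, 19 at an adjusted p under 0.05, and 3 to 17 with each line left out, the highest without the library labelled SKO132. Of the fold changes of the 10 genes, that of *Jak1* alone changed sign, to 0.0049 with array weights, while the sizes for *Il7r* ranged from 1.06 with array weights to 2.79 with a pseudocount of 0.1. The relations of *Socs1* lost significance after adjustment in the DKO lines alone (r = 0.47 with *Il7r*, 0.59 with *Il2ra*), without the 2 farthest lines (0.62 and 0.69) and in the lines above the gap in *Il7r* (0.10 and 0.28). Leaving out each line gave r = 0.69 to 0.78 for *Il7r* and 0.78 to 0.89 for *Il2ra*. The cause was not tested. Relations that did not pass also changed sign. *Il2ra* with *Socs3* was -0.036 by Spearman's rho, -0.21 in the DKO lines, -0.013 without the 2 farthest lines, and -0.56 and -0.053 above and below the gap. *Il7r* with *Socs3* was -0.092 in the DKO lines and -0.63 and -0.12 above and below the gap. *Il2rg* with *Socs1* was 0.0057 in the DKO lines, 0.21 in the E2a-/- lines, 0.082 with genotype means removed and 0.23 below the gap. *Il2rb* with *Socs1* was -0.0068 without the library labelled SKO132 and DKO79.9. Depth limits *Il2rb* and the low *Il7r* values, several of which are under 50 reads. No paired analysis was possible because the labels link no DKO line to an E2a-/- line.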

Other observations

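The 9 STAT5 target genes were also set against *Il7r* across the lines, an analysis added after the data had been seen. None passed adjustment over the 9. *Pim2*, a survival kinase, gave r = 0.59 and *Ccnd2* gave r = 0.55 (adjusted permutation p = 0.148 for each). *Bcl2*, which encodes a survival protein, gave r = -0.52 (adjusted permutation p = 0.148), with Spearman's rho = -0.32, and the genotypes differed in sign, with r = -0.79 over the E2a-/- lines and 0.17 over the DKO lines, a difference that was not tested. Its level was 109, 92.7 and 65.1 CPM in SKO115.2, SKO163.5 and SKO95, lines in which *Il7r* was 2.12 CPM or lower, and it was at most 28.4 CPM in the lines above the gap in *Il7r*. It was 3.42 to 8.04 CPM in the other 5 lines below the gap, so the low *Il7r* lines differed widely among themselves.

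*Notch1*, the receptor most often activated in T cell leukemia, was 31.3 CPM in the library labelled SKO132 and 830 to 2266 CPM in the other lines. Its relation to each of the 3 genes set against it turned on that library. Over the 15 lines r was 0.57 with *Socs1*, 0.38 with *Il2ra* and 0.25 with *Il7r* (permutation p = 0.0680, 0.161 and 0.507), and without the library labelled SKO132 it was -0.59, -0.53 and -0.48 (permutation p = 0.0273, 0.0545 and 0.0850, not adjusted).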
